A study of Mus musculus with 23 samples.

Results

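The comparison was between heterozygous and wild-type mice after cocaine, in the nucleus accumbens of the ventral striatum. Its members are all the arrays that the column names of the raw table give as heterozygous or wild type with cocaine, 12 of the 23 arrays of the series. Of these, 6 came from S321X/+ mice, which carry 1 copy of Foxp2 with a premature stop codon, and the other 6 from their wild-type counterparts. All the animals were C57BL6 mice, and all 12 of these received cocaine at 15 mg/kg intraperitoneally 1 h before the tissue was punched out. The labels call the samples biological replicates, and the sources used here do not state the animals' age. S321X/+ mice (5 arrays) and wild-type mice (6 arrays) given saline were used as a background for the genotype difference.

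Foxp2 is a forkhead transcription factor that mostly represses its targets, expressed in striatal projection neurons, and known for its role in speech and in vocal learning. Cocaine blocks the reuptake of dopamine. The dopamine then acts on projection neurons of the direct pathway, which carry the D1 receptor and substance P, and of the indirect pathway, which carry the D2 receptor and enkephalin. Within an hour it induces immediate-early genes such as Fos, Egr2 and Arc, so that a genotype difference at this time could lie in the resting state of the tissue, in the acute response or in both.

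The 12 cocaine arrays were of similar depth, with 16102 to 17933 probes detected and a median raw intensity of 18.2 to 33.4 units, and any pair of them correlated with r of 0.972 to 0.987. Striatal projection neuron markers were well measured, with 15 of the 16 that the array carries tested, and levels of excitatory cortical markers were measured too (9 of 10). Heterozygous arrays 9, 16 and 19 stood apart from the other cocaine arrays in the scores of several marker lists. Their excitatory cortical score, which averages the markers' log2 deviations from their means over the 23 arrays, was 0.84 to 1.02, and their striatal score was -0.64 to -0.51. Their D2 neuron score was -0.99 to -0.73. Their choroid plexus score, which rests on only 2 tested genes of the 7 that the array carries, was -0.98 to -0.54. The other heterozygous arrays, 3, 11 and 23, had excitatory scores of 0.23, -0.15 and 0.11, and the wild-type arrays had -0.35 to 0.61. The 3 arrays also stood apart on the first principal component of all 23 arrays (15.7% of the variance), at 27.3 to 31.7 against at most 18.8 among wild-type cocaine arrays. In a tissue punch, fewer cells of a type and less RNA per cell cannot be told apart. Results are therefore given with and without these 3 arrays.

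**Figure D1:**
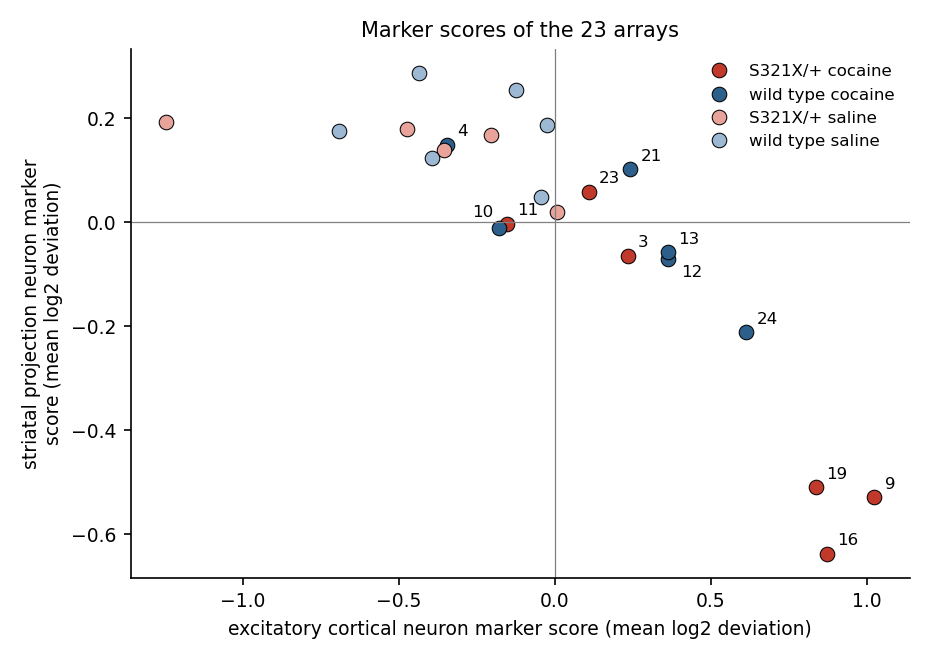
Marker scores of each of the 23 arrays, with the excitatory cortical neuron score on the x axis and the striatal projection neuron score on the y axis (average log2 deviation of the markers), and array numbers beside the cocaine arrays. Heterozygous cocaine arrays 9, 16 and 19 lie at the lower right, at 0.84 to 1.02 on the excitatory axis and -0.64 to -0.51 on the striatal axis.

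Sex labels and arrays did not match in the heterozygous cocaine group. The labels give 3 females and 3 males, but 4 arrays had the X-inactivation transcript Xist (11.7 to 11.9 on the log2 scale) and 2 had the Y-linked Eif2s3y. The wild-type cocaine group matched its labels, with 3 and 3, as did both saline groups. In the authors' processed values, heterozygous replicate 3, labelled male, had the X-linked gene Eif2s3x at 10.9, within the 12 samples labelled female (10.9 to 11.2) and above the other 10 labelled male (10.4 to 10.7). The raw columns name no animal. Their order of groups matches that of the samples throughout, which would place this replicate at array 11. That array had Xist at 11.7 and Eif2s3y at 4.78, but no label states the link. The 4 sex-linked genes tested differed by -1.04 to 1.24 between the genotypes, none with an unadjusted p under 0.05.

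Foxp2 itself was the check of the genotype labels. Its mean was lower in heterozygotes after both injections, and the genotypes were separated or nearly so after saline but overlapped after cocaine. Of its 4 probes, 3 were detected on all 23 arrays and 1 on 0. In the probe shown as A the heterozygous arrays spanned 6.77 to 8.76 and the wild-type arrays 7.49 to 9.18 (normalized log2 intensity). The means were 7.88 ± 0.77 in heterozygotes and 8.59 ± 0.61 in wild type (SD, n = 6 each), so the heterozygous level was 61.0% of wild type, with a two-sided exact permutation p = 0.115 over 924 splits. Probe B stood at 61.6% and probe C at 69.2% of wild type, with exact p = 0.126 and 0.188, and over the 3 probes the adjusted p was 0.188 for each. In the limma fit used for all other genes, the 95% intervals of the log2 difference were -1.28 to -0.15 for probe A, -1.32 to -0.076 for probe B and -1.07 to 0.0052 for probe C. Probes A and B thus had an unadjusted p under 0.05 there, and none passed after adjustment (limma adjusted p = 0.708, 0.780 and 0.811). The number of heterozygous arrays under the whole wild-type range was 1, 3 and 3 of 6 in the 3 probes. The lowest heterozygous values in every probe were those of arrays 9, 16 and 19. Without them the differences were -0.13, 0.05 and 0.12 on the log2 scale, so probes B and C no longer had a lower heterozygous mean. Because the arrays left out hold the lowest values and were singled out partly by striatal markers, these differences describe the probes and are not a test. With the striatal score as a covariate the differences were -0.09, 0.04 and 0.06. After saline, probe A spanned 8.30 to 8.55 in 5 heterozygous arrays and 8.84 to 9.20 in 6 wild-type arrays, and probe C spanned 8.42 to 8.82 and 8.94 to 9.27 in these groups, with no overlap in either. Probe B spanned 7.86 to 8.42 in heterozygotes and 8.30 to 8.97 in wild type, with 4 of the 5 heterozygous arrays under the whole wild-type range. The heterozygous means after saline were 65.7%, 68.2% and 71.5% of the wild-type means. The interactions of genotype with cocaine were -0.11, -0.15 and -0.05, each with an unadjusted limma p above 0.05. Whether any probe lies beyond the stop codon or reports decay of the mutant transcript was not analysed here.

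**Figure D2:**
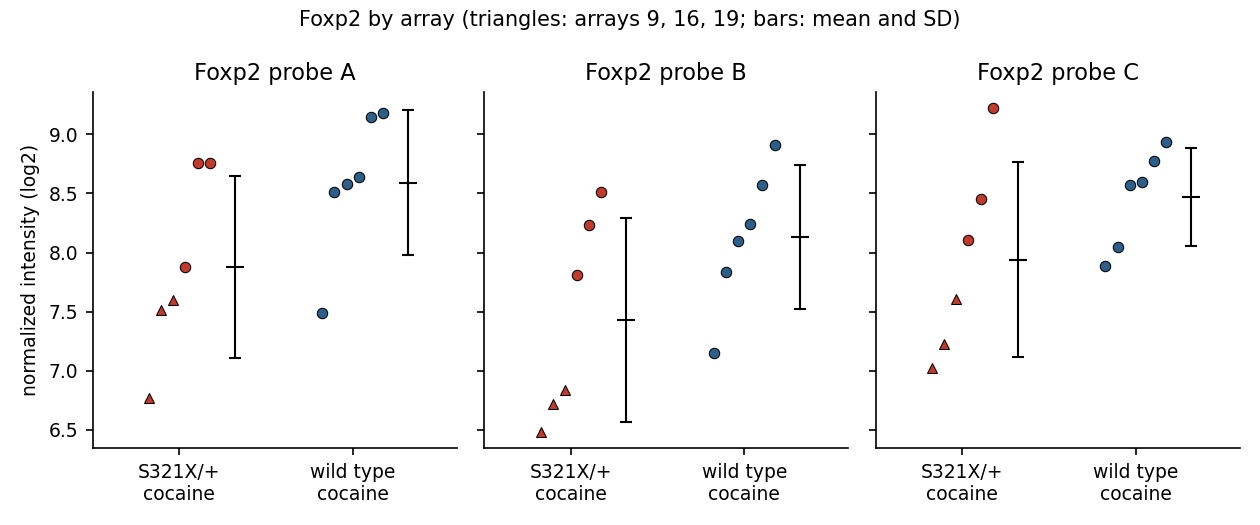
Normalized log2 intensity (y axis) of the 3 detected Foxp2 probes (A, B and C) on each heterozygous (left, red) and wild-type (right, blue) cocaine array, with bars for mean and SD. Triangles mark heterozygous arrays 9, 16 and 19, which are the lowest heterozygous values in all 3 probes, while the other heterozygous arrays lie within or above the wild-type range.

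Across all genes no difference between heterozygous and wild-type mice passed the test after cocaine. Of 10138 genes, 0 (0%) had an adjusted p under 0.05 in limma's moderated test with Benjamini-Hochberg adjustment, and the lowest adjusted p was 0.538. At an unadjusted p under 0.05, 368 genes (3.63%) were higher and 306 (3.02%) were lower in heterozygotes, 674 in all, and the median difference over all genes was 0.00. All 6 heterozygous arrays lay above all 6 wild-type arrays in 14 genes (0.138%) and below them in 10 (0.0986%). Without arrays 9, 16 and 19, and so with fewer heterozygous arrays, the unadjusted counts were 242 higher (2.39%) and 161 lower (1.59%). With the excitatory score as a covariate they were 287 higher (2.83%) and 207 lower (2.04%). The genes described next are those with the smallest unadjusted p and the members of gene lists, and none of them was called. These shares of all genes are the background for the counts of list members.

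Homer2, a postsynaptic scaffold that ties group I metabotropic glutamate receptors to calcium stores, had the smallest p when each gene was taken from its brightest probe. Another probe, of Ccnd1, had a smaller one. The lowest adjusted p over all probes was 0.329, and it belonged to neither of these probes. On the heterozygous arrays Homer2 read 10.47, 10.37, 10.17, 10.37, 10.23 and 9.95, against 9.55, 9.39, 9.51, 9.50, 9.83 and 9.88 in wild type. The 2 sets did not overlap, with array 23 the lowest heterozygous value. The mean was higher by 0.65 ± 0.14 (log2, SE; 95% interval 0.37 to 0.94), or 1.57-fold, and did not pass (limma adjusted p = 0.538). The difference was 0.59 without arrays 9, 16 and 19 and 0.55 with the excitatory score. After saline it was 0.08, and the interaction was 0.58 ± 0.20 (limma adjusted p = 0.927).

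Other genes with higher means in heterozygotes came from several functions. Ccnd1, the cell-cycle regulator cyclin D1, averaged 10.86 ± 0.14 in heterozygotes and 10.39 ± 0.19 in wild type (SD, n = 6 each), again with no overlap. Its other 2 tested probes differed by 0.48 and 0.24. Efcab6, which encodes an EF-hand calcium-binding protein, was detected on 4 of 6 heterozygous and 0 of 6 wild-type arrays, and was at least 1.29-fold higher in heterozygotes (adjusted p = 0.576). Vps37d, a subunit of the ESCRT-I sorting complex, averaged 8.28 ± 0.09 in heterozygotes and 7.96 ± 0.17 in wild type. Its difference was 0.32 after cocaine and 0.27 after saline. Txnrd2, the mitochondrial thioredoxin reductase, differed by 0.41 after cocaine and 0.26 after saline, and these were the 2 of the 24 genes with an unadjusted p under 0.05 after saline. Cnih3, an auxiliary subunit of AMPA receptors, spanned 9.39 to 10.41 in heterozygotes, with a median of 9.97, and 8.57 to 9.63 in wild type, with a median of 9.26. Its difference of 0.75 was 0.45 without arrays 9, 16 and 19. The secreted ligand Wnt7b differed by 0.64 and by 0.42 without these arrays, and its other tested probe differed by -0.01. Gpx3, the secreted glutathione peroxidase, differed by 0.82 and by 0.91 without the 3 arrays.

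The remaining genes with the smallest p among those higher in heterozygotes included a peptide receptor, a methyltransferase and a calcium sensor. Rxfp3, the receptor for relaxin-3, averaged 7.06 ± 0.37 in heterozygotes and 6.35 ± 0.27 in wild type, and was detected on 6 and 3 of their arrays. Hpcal1, a calcium sensor of the hippocalcin family, differed by 0.64, and its 3 tested probes by 0.38 to 0.64. Smyd2, a lysine methyltransferase, differed by 0.44, while its other probe differed by 0.05. Coq4, needed for coenzyme Q synthesis, differed by 0.44. Of the 24 genes with the smallest p, 12 in each direction, 9 had more than 1 tested probe, and in 7 of those all the probes pointed the same way. The exceptions were Wnt7b and Ddit3.

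**Figure D3:**
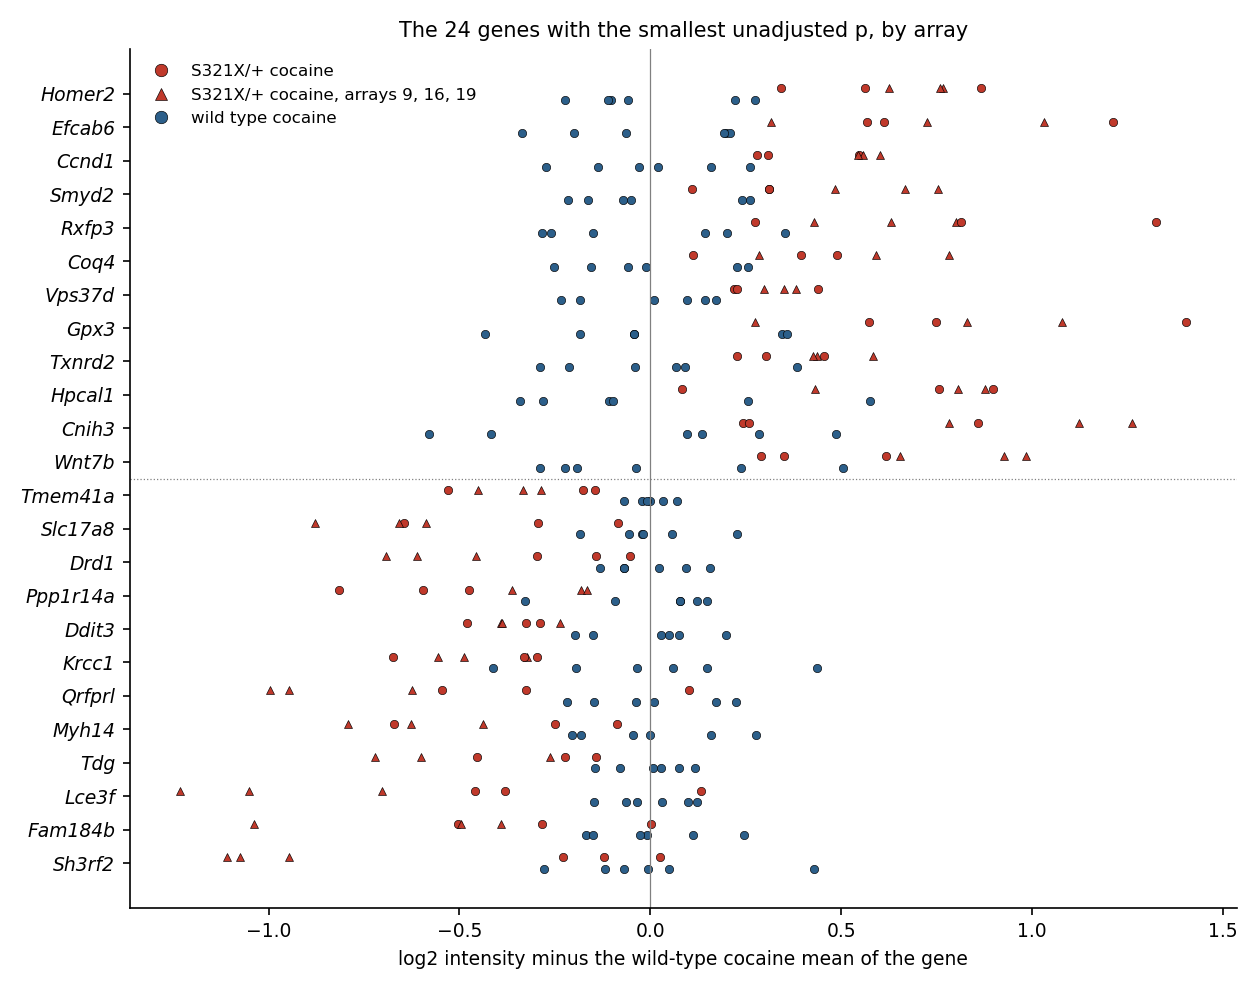
The 24 genes with the smallest unadjusted p after cocaine, 12 higher (top) and 12 lower (bottom) in heterozygotes. Each point is an array, as log2 intensity minus the wild-type cocaine mean of the gene (x axis), with heterozygotes in red above wild type in blue, and triangles for heterozygous arrays 9, 16 and 19. In Drd1, Qrfprl, Lce3f and Sh3rf2 the triangles hold the lowest values.

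Among genes with lower means in heterozygotes, Tmem41a, which encodes a transmembrane protein, had the smallest p. It spanned 10.78 to 11.17 in heterozygotes and 11.24 to 11.38 in wild type, with no overlap. The difference was -0.32 ± 0.07 (limma adjusted p = 0.538), and -0.28 without arrays 9, 16 and 19. Ddit3, the stress-induced transcription factor CHOP, also showed no overlap, at 8.42 to 8.66 (median 8.54) in heterozygotes and 8.70 to 9.10 (median 8.94) in wild type. Its difference was -0.35 in the probe used and 0.11 in its other tested probe, so the probes disagreed in direction.

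Slc17a8, the vesicular glutamate transporter VGLUT3, which striatal cholinergic interneurons use to release glutamate, averaged 8.32 ± 0.29 in heterozygotes and 8.85 ± 0.14 in wild type. In 5 of the 6 heterozygous arrays it was under the whole wild-type range, and arrays 9, 16 and 19 were among the 4 lowest. Its difference of -0.52 ± 0.12 (limma adjusted p = 0.576) was -0.34 without these arrays and 0.26 after saline. The interaction, -0.78 ± 0.18, did not pass (limma adjusted p = 0.927). The phosphatase inhibitor Ppp1r14a averaged 8.78 ± 0.25 in heterozygotes and 9.22 ± 0.18 in wild type, a difference of -0.43. That difference was -0.63 without the 3 arrays, and its other probe gave -0.29.

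The others with the smallest p in this direction were Krcc1 (-0.44), Qrfprl (-0.56), the non-muscle myosin Myh14 (-0.48), the thymine DNA glycosylase Tdg (-0.40), Lce3f (-0.62), Fam184b (-0.45) and Sh3rf2 (-0.58). Lce3f, a gene of the epidermal cornified envelope, was detected on 1 heterozygous and 5 wild-type arrays. The values of several of these followed the arrays that stood apart. Without arrays 9, 16 and 19, Qrfprl differed by -0.26, Lce3f by -0.24, Fam184b by -0.26 and Sh3rf2 by -0.11. Over both directions, all 24 genes kept their sign without the 3 arrays and 17 had an unadjusted p under 0.05. With the excitatory score 24 of 24 did, with the striatal score 21, and with the Xist level 24. The 24 were chosen for their p in the full set, so these counts describe them and are not a test.

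Dopamine receptors and their second-messenger genes were lower in heterozygotes in most of the list, without any gene being called. Of the 14 genes of dopamine and cAMP signalling tested, 13 had a lower mean and 8 had an unadjusted p under 0.05, all of them lower, against 3.02% of all genes. The median difference was -0.26. Without arrays 9, 16 and 19 the median was -0.02 and 0 of the 14 had an unadjusted p under 0.05. With the excitatory score the median was -0.14 and 3 did.

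Drd1, the D1 dopamine receptor, read 12.20, 12.04, 12.36, 11.81, 11.89 and 12.45 on heterozygous arrays 3, 9, 11, 16, 19 and 23, against 12.59, 12.52, 12.43, 12.37, 12.66 and 12.43 in wild type. Arrays 16, 19 and 9 were the 3 lowest, and array 23 was within the wild-type range. The difference was -0.38 ± 0.10 (95% interval -0.58 to -0.18, limma adjusted p = 0.576), and -0.16 without the 3 arrays. The D2 receptor Drd2 had a lowest, median and highest value of 8.90, 9.29 and 9.74 in heterozygotes, against 9.23, 9.74 and 10.30 in wild type, and its groups overlapped. Its difference of -0.44 ± 0.17 (adjusted p = 0.728) was -0.10 without the 3 arrays. Striatal phosphodiesterase Pde10a, which degrades cAMP and cGMP in projection neurons, differed by -0.47, and by -0.16 without the arrays. A related phosphodiesterase, Pde7b, differed by -0.66 and -0.25. Ppp1r1b, the dopamine-regulated phosphatase inhibitor DARPP-32, was chosen after its values were seen. It averaged 13.52 ± 0.30 in heterozygotes and 13.79 ± 0.21 in wild type, and differed by -0.01 without the 3 arrays.

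The markers of striatal projection neurons, which overlap with that list in genes such as Pde10a, also had lower means. All 15 tested had a lower mean in heterozygotes, and the median was -0.24. Of them, 7 had an unadjusted p under 0.05, against 3.02% of all genes lower at that level. Without arrays 9, 16 and 19 the median was 0.02 and the count was 0. Those arrays were singled out by the scores of these same markers and 3 heterozygous arrays remain, so the values without them describe the lists of striatal, D1, D2, dopamine and cortical genes and are not a test. The exchange factor Rasgrp2 and the small GTPase Rasd2 differed by -0.47 and -0.30 in all arrays, and by -0.16 and -0.09 without the 3. D1 markers had a median of -0.26 (3 of 8 lower at an unadjusted p under 0.05), and 0.12 without the 3 arrays (0 of 8). They include Slc35d3, a solute carrier of direct-pathway neurons, at -0.39. D2 markers had a median of -0.41 (2 of 6), and 0.01 without the 3 arrays (0 of 6), with the receptor Gpr6 at -0.33. The 9 excitatory cortical markers had a median of 0.46, with Neurod2, Neurod1 and Fezf2, transcription factors of cortical projection neurons, at 0.59, 0.46 and 0.46. None had an unadjusted p under 0.05, and the median was -0.21 without the 3 arrays. The vesicular glutamate transporter Slc17a7 had a lowest, median and highest value of 10.81, 11.81 and 12.31 in heterozygotes, against 10.72, 11.33 and 11.69 in wild type. It differed by 0.46 ± 0.33, and by 0.08 without the 3 arrays. The part of these marker differences in the other results was not tested.

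**Figure D4:**
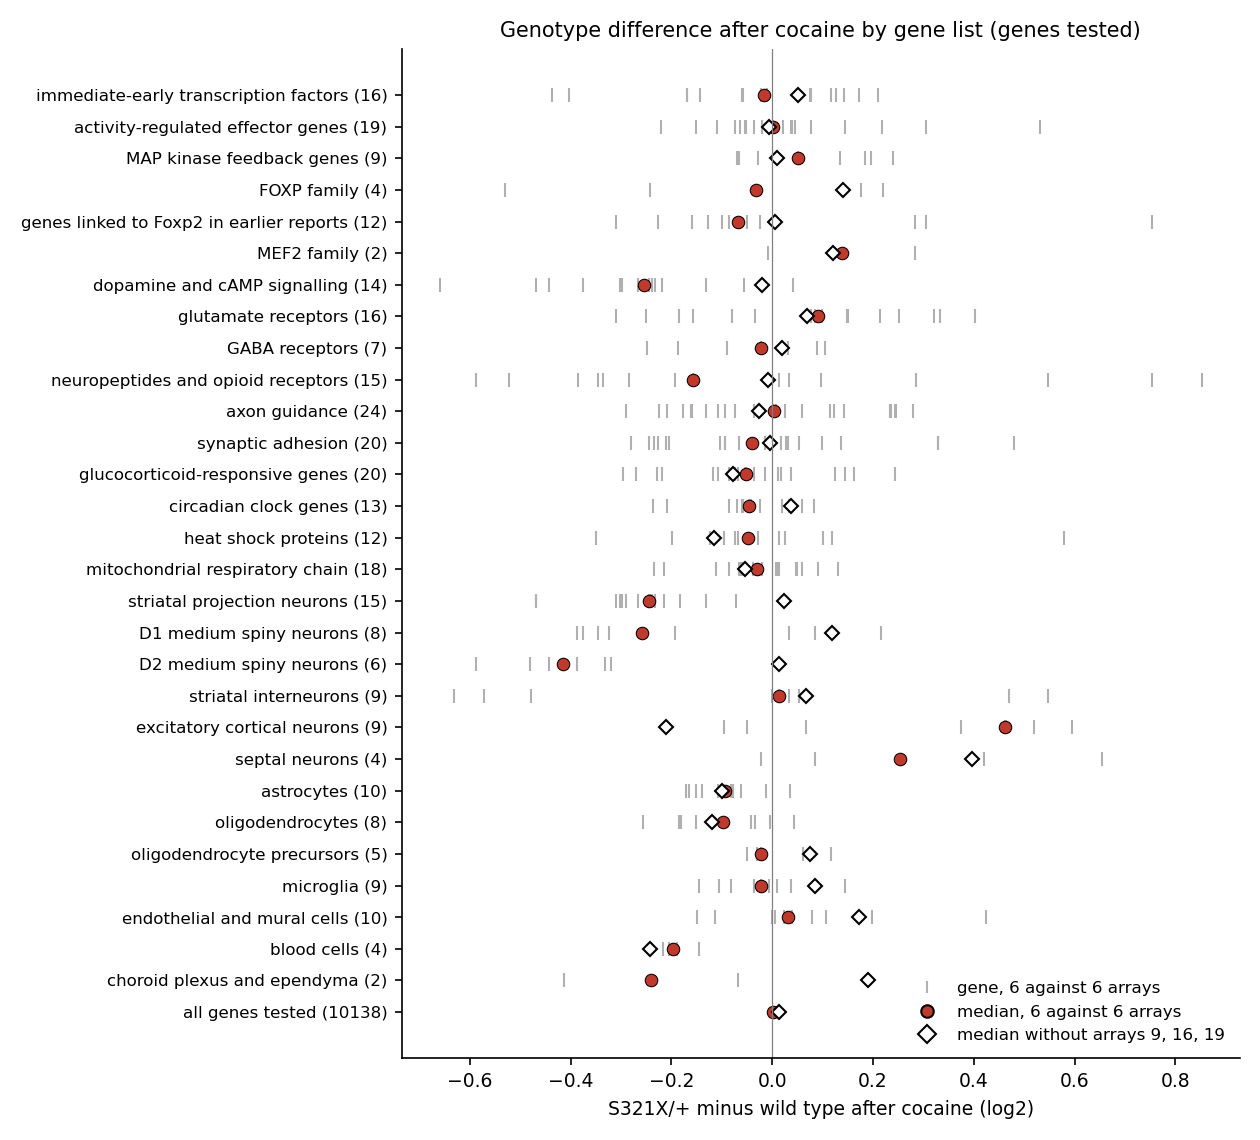
Heterozygous minus wild-type difference after cocaine (log2, x axis) for the tested genes of each list (grey ticks, number of genes in brackets), with the list median over 6 against 6 arrays (red) and without heterozygous arrays 9, 16 and 19 (open diamonds). The medians of striatal projection, D1 and D2 markers and of dopamine signalling lie at -0.24 to -0.41 with all arrays and at -0.02 to 0.12 without the 3, while that of all genes is 0.00 and 0.01.

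Neuropeptide genes differed in both directions. Penk, which encodes the enkephalin precursor of indirect-pathway neurons, had a lowest, median and highest value of 10.73, 11.39 and 11.91 in heterozygotes, against 11.51, 12.06 and 12.29 in wild type. Its 3 lowest heterozygous values were those of arrays 16, 19 and 9. The difference was -0.59 ± 0.17 (limma adjusted p = 0.631), and -0.19 without these arrays. Tac1, the substance P precursor of direct-pathway neurons, had values of 13.06, 13.45 and 13.78 in heterozygotes, against 13.65, 13.76 and 13.98 in wild type. It differed by -0.35 ± 0.11 (adjusted p = 0.654), and by -0.13 without the 3 arrays. Cholecystokinin (Cck), abundant in cortical neurons, differed by 0.75 ± 0.30 and by 0.33 without them. Outside the naming rule, and chosen after their values were seen, neurotensin (Nts) and the PACAP gene Adcyap1 complete the 5 of 15 genes of this list with an unadjusted p under 0.05. They differed by -0.52 and 0.85, and by -0.24 and 0.48 without the 3 arrays. Of the 5 genes, 2 were higher and 3 lower, against 3.63% and 3.02% of all genes.

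The 9 interneuron markers tested had no common direction, with 5 higher and 4 lower means in heterozygotes and a median of 0.01. At an unadjusted p under 0.05, 1 was higher and 2 were lower, against 3.63% and 3.02% of all genes. None of the 9 had an unadjusted p under 0.05 without arrays 9, 16 and 19. The choline transporter Slc5a7 averaged 8.75 ± 0.61 in heterozygotes and 9.38 ± 0.25 in wild type, a difference of -0.63 that was -0.13 without arrays 9, 16 and 19. The vesicular acetylcholine transporter Slc18a3 differed by -0.57 and, without them, by 0.11. Calretinin (Calb2), of another interneuron class, differed by 0.47, and by 0.19 without the arrays.

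For the immediate-early genes Fos, Egr1, Egr2, Arc and Npas4, the 95% interval of the genotype difference 1 h after cocaine included 0. Fos had a lowest, median and highest value of 10.57, 11.09 and 11.29 in heterozygotes, against 10.61, 11.04 and 11.38 in wild type, and the medians after saline were 9.59 in heterozygotes and 9.40 in wild type. The genotype difference was -0.01 ± 0.22 (95% interval -0.46 to 0.44). Egr1 had values of 14.51, 14.56 and 14.64 in heterozygotes, against 14.44, 14.61 and 14.80 in wild type, and differed by -0.06 ± 0.08 (interval -0.22 to 0.10).

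Egr2 had values of 9.78, 10.53 and 11.05 in heterozygotes, against 9.97, 10.53 and 11.75 in wild type, and differed by -0.14 ± 0.25 (interval -0.66 to 0.37). Arc, the synaptic effector, had values of 10.33, 10.73 and 11.32 in heterozygotes, against 10.39, 10.60 and 11.20 in wild type, and differed by 0.04 ± 0.16 (interval -0.30 to 0.38). In each of these genes the groups overlapped. Npas4, a transcription factor induced by neuronal activity, had values of 7.53, 8.08 and 8.49 in heterozygotes, against 7.49, 7.90 and 8.32 in wild type, and differed by 0.13 ± 0.18 (interval -0.25 to 0.51). The interactions of genotype with cocaine were 0.00, 0.03, 0.01, 0.05 and 0.22 for Fos, Egr1, Egr2, Arc and Npas4.

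Over the 16 immediate-early transcription factors tested the median difference was -0.02. At an unadjusted p under 0.05, 0 were higher and 2 lower, Fosb and Klf4, against 3.63% and 3.02% of all genes. The counts were 0 and 0 without arrays 9, 16 and 19. Fosb, a subunit of AP-1 that accumulates with repeated drug exposure, had a lowest, median and highest value of 8.83, 8.97 and 9.37 in heterozygotes, against 8.77, 9.43 and 10.18 in wild type. It differed by -0.44 ± 0.18 (adjusted p = 0.754), and by -0.27 without arrays 9, 16 and 19. Klf4 differed by -0.40 and was detected on 1 heterozygous and 4 wild-type arrays. Egr3 differed by -0.17. Among 19 activity-regulated effector genes the median was 0.00 and 0 had an unadjusted p under 0.05. The neurotrophin Bdnf had the smallest p of these, with values of 8.46, 10.02 and 10.25 in heterozygotes, against 8.53, 9.27 and 9.74 in wild type. Its difference of 0.53 ± 0.32 was 0.03 without the 3 arrays. Gadd45g and Tiparp differed by -0.15 and -0.22. Among 9 MAP kinase feedback genes the median was 0.05, with the phosphatases Dusp7 and Dusp4 at 0.24 and 0.18 and the Ras pathway inhibitor Spred1 at -0.07.

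**Figure D5:**
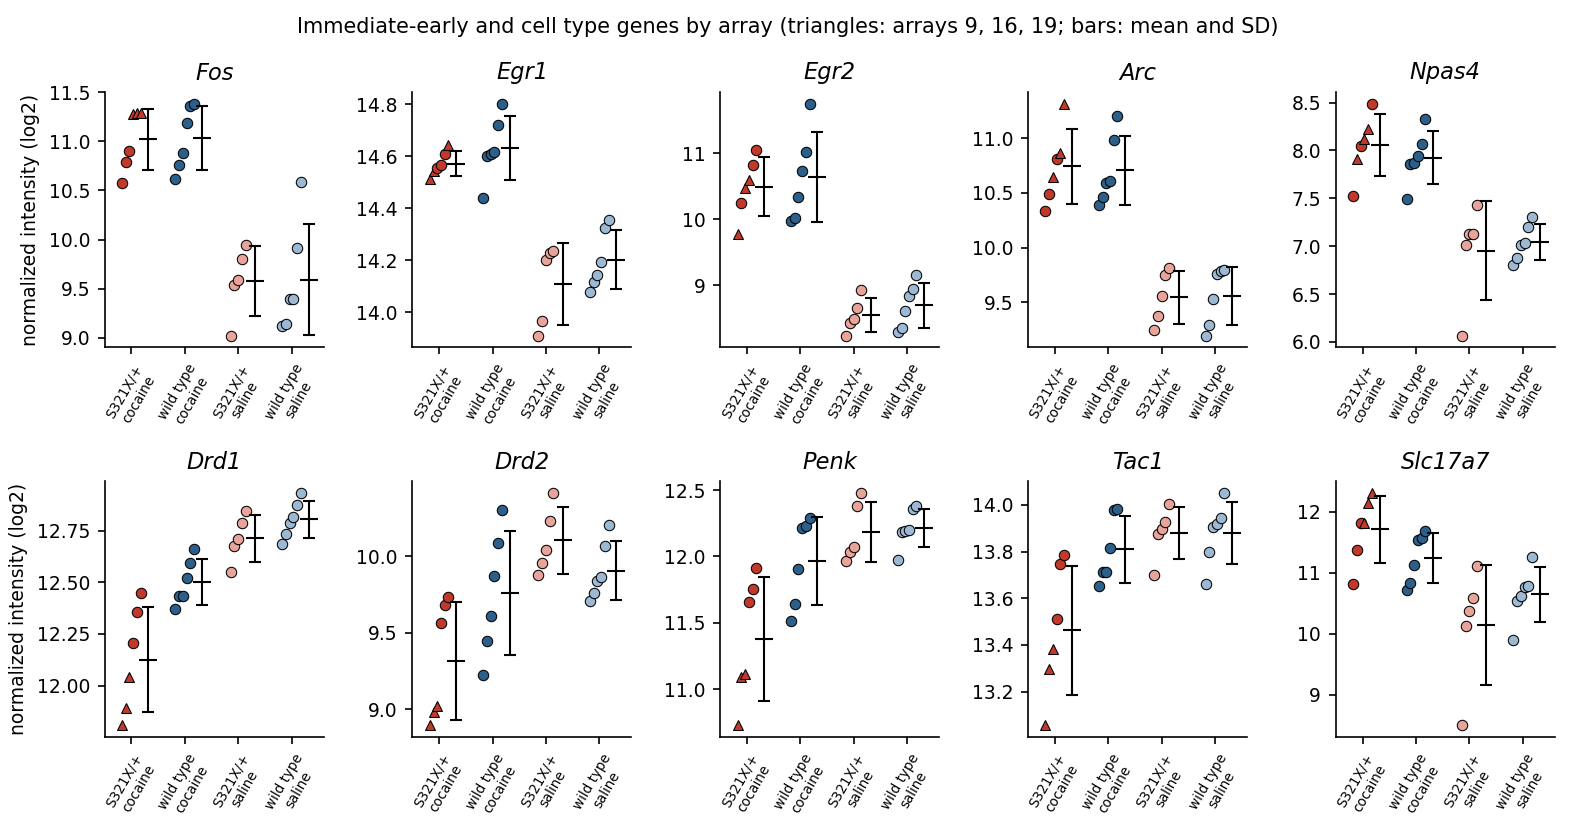
Normalized log2 intensity (y axis) of 5 immediate-early genes (top row) and 5 cell type genes (bottom row) on every array, by genotype and injection, with bars for mean and SD and triangles for heterozygous cocaine arrays 9, 16 and 19. In the top row the heterozygous and wild-type cocaine arrays overlap and lie mostly above the saline arrays, and in Drd1, Drd2, Penk and Tac1 the triangles hold the 3 lowest cocaine values.

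Of the FOXP family, which forms homo- and heterodimers, Foxp4 had a difference of 0.22 ± 0.09 (limma adjusted p = 0.780), with arrays spanning 9.40 to 9.80 in heterozygotes and 9.12 to 9.60 in wild type. It differed by 0.15 without arrays 9, 16 and 19 and by 0.11 after saline. Foxp1, which is abundant in striatal projection neurons, spanned 8.46 to 9.57 in heterozygotes and 8.76 to 9.78 in wild type. It differed by -0.24 ± 0.19, and by 0.17 without the 3 arrays. The probe annotated to Foxp3, the factor of regulatory T cells, differed by 0.18. Mef2c, a transcription factor of synapse development that Foxp2 is known to repress in the striatum, averaged 12.94 ± 0.19 in heterozygotes and 12.65 ± 0.27 in wild type. Its difference was 0.28 ± 0.12 (95% interval 0.03 to 0.54, limma adjusted p = 0.784), 0.21 without the 3 arrays and -0.12 after saline. The interaction was 0.41 ± 0.18 (limma adjusted p = 0.927). Among 12 genes linked to Foxp2 in earlier reports, the median was -0.07. Mef2c and Cck, both higher, were the 2 with an unadjusted p under 0.05, against 3.63% of all genes higher. Neither had one without arrays 9, 16 and 19, and with the excitatory score only Cck did, of the 12. The retinoic acid receptor Rarb differed by -0.31, and by 0.05 without the 3 arrays. Foxp1 and Rarb are themselves markers in the striatal score that helped to single out the 3 arrays. Their values without those arrays are therefore not a test. Of the MEF2 family, Mef2b differed by -0.01.

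Receptors of glutamate and GABA gave few genes at an unadjusted p under 0.05. Of 16 glutamate receptor genes, with a median of 0.09, 2 were higher and 1 was lower at that level, against 3.63% and 3.02% of all genes. Both counts were 0 without arrays 9, 16 and 19. The NMDA receptor subunit Grin3a differed by 0.32 ± 0.12, and by 0.31 after saline, and the AMPA receptor subunit Gria2 by 0.15 ± 0.07. Grm4, a presynaptic metabotropic receptor, differed by -0.25, and by -0.03 without arrays 9, 16 and 19. Of 7 GABA receptor genes 0 had an unadjusted p under 0.05 (median -0.02), with Gabbr1, Gabrd and Gabra3 at -0.25, -0.19 and 0.09.

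Axon guidance and adhesion genes, groups that hold known Foxp2 targets in developing brain, had medians of 0.00 (24 genes) and -0.04 (20 genes). Slit3, a secreted repellent, spanned 10.01 to 10.30 in heterozygotes and 10.25 to 10.44 in wild type, and differed by -0.21 ± 0.08. It differed by -0.24 without the 3 arrays, with an unadjusted p under 0.05 in both cases. Its receptor Robo1 differed by -0.29, and by -0.07 without them. The ephrin Efna5 differed by 0.28 and 0.27. Of the adhesion genes, Slitrk1 was at 0.33, Flrt3 at -0.28 and the neurexin Nrxn3 at -0.25, and without the 3 arrays they were at 0.15, -0.02 and -0.07.

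Stress, clock and respiratory chain lists gave 1 gene at that level among them. Of 20 glucocorticoid-responsive genes 1 was lower at an unadjusted p under 0.05, the mTOR inhibitor Ddit4 (-0.22), against 3.02% of all genes. Nfkbia and Arrdc2 were at -0.23 and 0.24, and the list median was -0.05. Of 13 circadian clock genes 0 passed that level (median -0.05), with Npas2, Nr1d1 and Bhlhe40 at -0.24, -0.21 and 0.08. Of 12 heat shock genes 0 did (median -0.05), with Hspa1b, Hspb1 and Dnaja1 at 0.58, -0.35 and -0.20. Of 18 respiratory chain genes 0 did (median -0.03), with Cox7b, Ndufv1 and Cox6c at -0.23, 0.13 and -0.21. Without arrays 9, 16 and 19, Cox6c and Cox7b were the 2 of the 18 lower at an unadjusted p under 0.05 (-0.37 and -0.34), against 1.59% of all genes.

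Glial, vascular and other marker lists had medians near 0, apart from the smallest ones. Of 10 astrocyte markers 9 had a lower mean in heterozygotes, with a median of -0.09, and Aldoc, Aldh1l1 and Slc1a2 at -0.15, -0.17 and -0.14. Of 8 oligodendrocyte markers the median was -0.10. The myelin gene Opalin differed by -0.26, Mog by -0.19 and Cnp by -0.18. At an unadjusted p under 0.05, 1 of the 8 was lower with all arrays, against 3.02% of all genes. Without the 3 arrays 3 of the 8 were lower, against 1.59% of all genes. Oligodendrocyte precursor and microglial markers had medians of -0.02 each, with Gpr17, Olig1 and Cspg4 at 0.12, -0.05 and 0.06 and C1qb, Csf1r and Aif1 at 0.14, -0.15 and -0.08. The 10 endothelial and mural markers had a median of 0.03, with Kcnj8 at 0.42, Rgs5 at 0.20 and Flt1 at -0.11. Blood markers (4 globin and red cell genes) had a median of -0.20, with single arrays spread over -1.07 to 1.20 in heterozygotes and -0.25 to 1.18 in wild type, and with Hbb-bs at -0.21, Hbb-bt at -0.22 and Hba-a1 at -0.15. The septal marker list had a median of 0.25 over 4 genes, with Trpc4 at 0.65 (limma adjusted p = 0.654), Zic4 at 0.42 and Zic1 at 0.08. Its score was 0.85 on heterozygous array 11, against at most 0.25 on the other heterozygous arrays and 0.06 on the wild-type arrays. The 2 choroid plexus genes tested, Clic6 and Kl, differed by -0.41 and -0.07, and without the 3 arrays their median was 0.19. The score of these genes was among those that singled out the 3 arrays, so that median is not a test.

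Set against saline, the genotype difference after cocaine did not differ in any gene that passed the test. The interaction gave 0 called genes, with a lowest adjusted p of 0.927, and 488 genes (4.81%) with an unadjusted p under 0.05. After saline 0 genes were called and 376 had an unadjusted p under 0.05, against 674 after cocaine. Without arrays 9, 16 and 19 the count after cocaine was 403. Of the 24 genes with the smallest p after cocaine, 14 had the same sign after saline. In 15 of the 24 the interaction had an unadjusted p under 0.05, but they had been chosen on the cocaine arrays that this contrast shares. Drd2 had an interaction of -0.64 ± 0.25 and Bdnf of 1.09 (limma adjusted p = 0.927 for both).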

How the data were processed

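Total RNA from nucleus accumbens punches was labelled as biotinylated cRNA and hybridised to Illumina MouseWG-6 arrays, per the labels. The authors deposited a raw table of bead intensity with a detection p-value for each probe and array, per the file headers, and separately a table of processed values, which lie on a log2 scale as the deposited values show and cover 16253 probes (9274 genes). How the authors made the second table is not stated in those sources, and it served only as an alternative and for the sex check.

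Here the raw intensity values were background-corrected and quantile-normalized with limma's neqc (limma 3.58.1, R 4.3.3), with the negative-control moments inferred from the detection p-value and an offset of 16, then put on the log2 scale. The 18509 probes detected at p under 0.01 by 5 or more arrays were kept, and each of the 10138 genes was taken from its brightest probe. Of 45281 probes, 34885 have 1 gene in the annotation, 18 several and 10378 none, and 2645 tested probes without a single gene were not named. All 4 groups (23 arrays, 19 residual degrees of freedom) entered 1 limma fit with no covariates, with Benjamini-Hochberg adjustment. The limma fit was tested on simulated log2 values with 200 probes changed by 1 log2 unit. The steps before the fit were not tested in this way. The number of arrays limits the precision, and array number 8 does not occur among the columns used.

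The named genes are the 12 with the smallest p in each direction, up to 3 of each of 17 gene lists and 13 marker lists by smallest p, and 14 genes always named (Foxp1, Foxp2, Foxp4, Mef2c, Fos, Egr1, Egr2, Arc, Npas4, Drd1, Drd2, Penk, Tac1 and Slc17a7). Members and lists were chosen with earlier results of these data known. Raw columns carry array numbers and not the replicate numbers of the labels. In the authors' values the same-numbered heterozygous and wild-type samples had correlated deviations of 0.366, 0.0707, 0.233, 0.159, 0.0456 and 0.0142. Values for differently numbered samples are not given beside them, so these do not decide whether the numbers pair animals. No label says that they do, and they were not taken to. Alternatives covered background, offset, filter, probes, sex, marker scores, array number and left-out arrays.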

Additional observations from a re-analysis of the deposited data

Results flagged for a closer look

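In the groups of 6 cocaine arrays, 7 of 228 combinations of a named gene and a genotype held 1 array whose gap to its neighbour was large against the range of its group by Dixon's criterion. Chance gives about 1 in 20. Heterozygous array 19 was the lowest of its group in C1qb, at 10.13 against 10.36 for the nearest array (log2), and the highest in Gria2, at 13.70 against 13.55. Heterozygous array 16 was the lowest in Ddit4, at 10.46 against 10.78. Heterozygous array 3 was the lowest in Slc1a2, at 10.54 against 10.97. Wild-type array 4 was the highest of its group in Egr3, at 13.18 against 12.86, and in the globin gene Hbb-bs, at 14.97 against 14.04. Wild-type array 12 was the highest in Robo1, at 11.74 against 11.33.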

How the results depend on the processing

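No setting called a gene. The number of genes at an unadjusted p under 0.05, 674 as reported, was 281 in females only, 428 with the striatal score, 403 without arrays 9, 16 and 19, 1126 with no filter and 1126 with all probes counted. The other settings gave 494 to 867. Settings by sex or with arrays left out rest on fewer arrays than the reported fit. The settings by sex followed the labels. Heterozygous replicate 3, with an Eif2s3x level within the samples labelled female, therefore counted as male. Leaving out each array in turn gave 514 to 924 genes and 0 calls. In the authors' values the fit with the replicate block gave 0 calls and 760 genes. Foxp2 probes B and C were at 0.054 and 0.12 without arrays 9, 16 and 19. Among 645 values of 37 genes over 18 settings, 13 had the opposite sign. Arc was at -0.11 in males only, -0.027 with the excitatory score, -0.054 with the striatal score and -0.16 without the 3 arrays. Npas4 was at -0.0062 in males only. Fos was at 0.20 in females only and 0.015 in the authors' values without heterozygous replicate 3. Egr2 was at 0.047 and 0.068, Foxp1 at 0.13 and 0.17, and Foxp2 (probe C) at 0.063 and 0.12, with the striatal score and without the 3 arrays. Foxp1 is itself a marker in the striatal score. That score helped to single out the 3 arrays, which held the lowest heterozygous Foxp2 values. The Foxp1 values of both settings, and the Foxp2 values without the 3 arrays, are therefore not a test. With single arrays left out, Arc ranged over -0.076 to 0.14, Egr2 over -0.28 to 0.080 and Fos over -0.093 to 0.080. The causes were not tested. The 24 genes with the smallest p kept their sign in every setting that tested their probe, and some probes were not tested in every setting. The settings with the Xist level and without heterozygous replicate 3 were chosen after seeing the data.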
